A study of Mus musculus with 2 samples.

Results

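The genes described here are 56 regulators and structural components of mitosis in the mouse mammary carcinoma line 4T1. They were chosen by symbol, as G2/M regulators, spindle motors, kinetochore and checkpoint genes and condensin subunits, with earlier results of these data known. All 56 were found among the 19498 Ensembl genes of the deposited table, through the symbols of GENCODE M21. The study set 4T1 cells exposed to LY500307, which activates estrogen receptor beta, against control-treated 4T1 cells, and asked which RNAs differ. Each group was 1 library of total RNA without ribosomal RNA, and dose and duration are not given in the sources used. Both groups came from this 1 metastatic line in culture. A single library per group allows no test, and every comparison below describes 2 libraries.

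The library from LY500307-treated cells held 15104003 recovered reads and that from control-treated cells 14541874. Recovered reads are the whole numbers that come back when each deposited value is divided by the size of 1 read in its column. Of 9 mammary epithelial markers, 8 were at or above the floor on low values, with 48612 reads in all in the LY500307 and 53162 in the control library. Among these, Krt8 had 14450 reads in the LY500307 and 17073 in the control library, and Cdh1 had 5248 in the LY500307 and 4575 in the control library. Krt5 was not analysed here. Of the markers of other cells, 1 of 5 leucocyte genes in the table (Cd68), 0 of 3 endothelial, 1 of 4 fibroblast (Pdgfra) and 0 of 2 erythroid genes reached the floor. Cd68 had 102 reads in the LY500307 and 81 in the control library, and Pdgfra had 285 in the LY500307 and 271 in the control library. The leucocyte gene Ptprc had 4 reads in the LY500307 and 2 in the control library, and the endothelial gene Pecam1 had 4 reads in the LY500307 and 6 in the control library.

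Entry into mitosis is driven by cyclin B bound to the kinase CDK1, which CDC25 phosphatases activate. Chromosomes condense, kinetochores form on centromeres, and motor proteins and microtubule-associated proteins build the spindle. The spindle checkpoint restrains CDC20, the activator of the anaphase-promoting complex, until all kinetochores are attached. The complex then marks securin and cyclin B for destruction, separase is released to cleave cohesin, and the cell divides. Most of these genes are transcribed late in the cell cycle, and MuvB complexes bind many of their promoters at a cell cycle homology region, or CHR, while NF-Y binds CCAAT boxes.

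Most spindle motor, spindle assembly and kinetochore genes had slightly higher values in the LY500307 library, 20 of 22 with a ratio above 0, or 90.9%. Of the 8 genes of anaphase onset and of the chromosomal passenger complex, 7 had slightly lower values, with 12.5% above 0. Over all genes at or above the floor, 47.2% lay above 0. The counting interval spanned 1 for 9 of these 22 and 3 of these 8. These roles were joined with their ratios known, so the contrast is a description and not a finding in its own right. Spindle checkpoint genes, 4 of 5 above 0, and chromosome structure genes, 5 of 6 above 0, are in neither set. Median transcript GC content was 42.8% for the 22 and 53.6% for the 8, against 49.6% over all genes. Of 34 further kinetochore and centromere genes outside the 56, only 18 lay above 0. Differences were small throughout, and with the trend in transcript GC content and length removed the medians of these roles drew closer together, as described below. The log2 ratio of LY500307 over control, on values with a pseudocount of 1.03 added, ranged from 0.45 for Hmmr to −0.23 for Aurkb. Its median over the 56 genes was 0.074, against −0.016 over the 11384 genes whose higher value reached a floor of 33.0, called all genes below. The quartiles of the 56 were −0.063 and 0.18, against −0.18 and 0.13 over all genes. Of the 56 genes, 38 had a ratio above 0, or 67.9%, and 47.2% of all genes did. At least 1.2-fold higher were 4, or 7.14%, against 10.5% of all genes. None was at least 1.2-fold lower, against 15.9% of all genes, and none was 1.5-fold apart in either direction, against 1.8% higher and 1.97% lower of all genes. Among the 5992 genes with at least as many reads as the least covered of the 56, 4.67% were at least 1.2-fold higher and 11.5% lower, and 0.0501% were at least 1.5-fold higher and 0.417% lower. The share of mitotic genes 1.2-fold higher lay between that of all genes and that of these 5992 genes. It rests on 4 genes, and the number became 7 when scaled to read totals and 1 with the GC and length trend removed. Whether it differs from either share was not tested. The SD of the ratio was 0.15 across the 56, 0.27 across all genes and 0.19 across these 5992 genes. In bulk RNA, a different share of cells in mitosis and a different amount of these RNAs per cell cannot be told apart.

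The number of reads sets how finely each gene was measured. The 56 genes had between 965 and 25014 reads over both libraries, so all passed the floor. The 95% counting interval of the fold lay above 1 for 24 genes, or 42.9%, against 18.1% of all genes. It lay below 1 for 10, or 17.9%, against 23.7% of all genes, and it spanned 1 for 22. Among the 5992 genes with at least 965 reads, intervals lay above 1 for 24.4% and below 1 for 30.9%. Scaled to read totals (CPM) in place of the deposited scaling, intervals of 30 of the 56 lay above 1 and of 8 below 1. Intervals cover counting error only, not the spread between cultures.

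**Figure D1:**
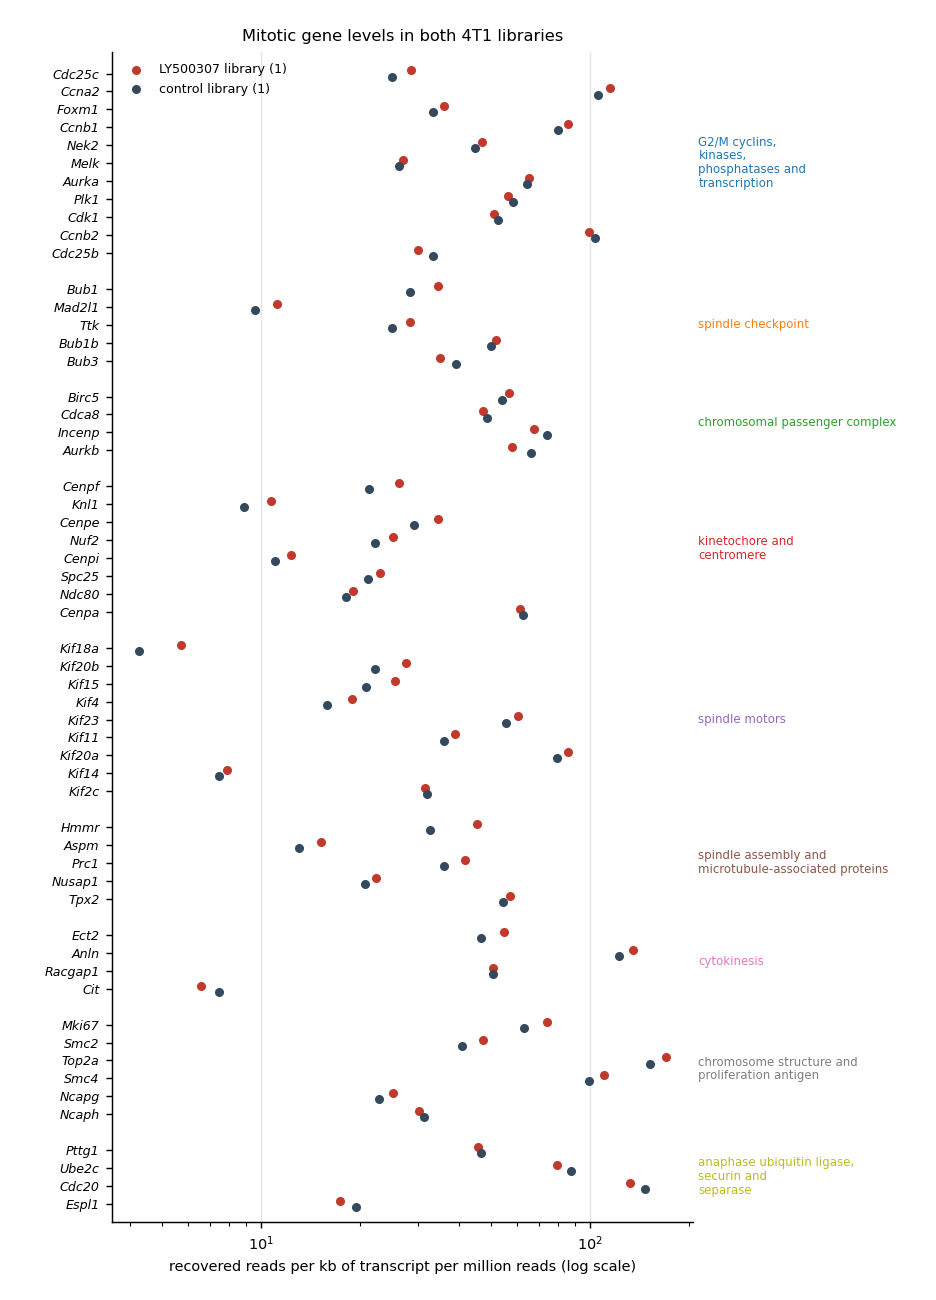
Levels of the 56 mitotic genes, as recovered reads scaled to transcript length and library size (RPKM) on a log axis, grouped by role, with 1 point for the LY500307 library and 1 for the control library. Top2a, at 171 in the LY500307 and 152 in the control library, is highest, Kif18a, at 5.72 in the LY500307 and 4.26 in the control library, is lowest, and the points of each gene lie close together.

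Levels per length, in RPKM of the longest transcript, spanned a wide range while the ratios did not. Top2a, the topoisomerase that untangles sister chromatids, was highest with 171 RPKM in the LY500307 and 152 RPKM in the control library. Next by their mean came Cdc20, with 133 RPKM in the LY500307 and 147 RPKM in the control library, and Anln, with 135 RPKM in the LY500307 and 123 RPKM in the control library. The lowest level was that of the motor gene Kif18a, with 5.72 RPKM in the LY500307 and 4.26 RPKM in the control library. Across the 56 genes, the log2 ratio had a Spearman correlation of −0.32 with the level per length, which is a description over genes that share 2 libraries and are not independent. Transcript length is a divisor of this level and itself had a Spearman correlation of 0.49 with the ratio. A relation with level apart from length was not tested.

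The promoters of these genes share sequence that played no part in their choice. Windows from 250 bases before to 50 bases after the transcription start, from RefSeq on build GRCm38.p6, were found for 48 of the 56 symbols. Those with no window were Aurkb, Ccna2, Cdc25c, Foxm1, Incenp, Kif20a, Smc4 and Tpx2. The CHR letters TTTGAA, searched on both strands, were present for 33 of the 48 genes, or 68.8%, against 20.2% of the 27025 genes with a window and 13.8% of the 8543 of them that reached the floor. The letters CCAAT, searched separately and also on both strands, were present for 33 of the 48, or 68.8%. This compares with 41.1% of all genes with a window and 43.6% of those that reached the floor. Both motifs stood in the windows of 27 genes, or 56.2%, against 8.97% of all genes with a window. Of the 46 TTTGAA matches in these genes' windows, 34 began within 50 bases of the transcription start, or 73.9%, against 25.3% of the matches in all windows, where overlapping windows of 1 gene were each counted. A match is a description of the letters and not a binding site.

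Shown here are 4 promoters with a TTTGAA match, taken from the ends of the range of ratios, 3 of them from genes higher in the LY500307 library and 1, Bub3, from a gene lower in it. Capitals mark the TTTGAA letters and CCAAT boxes, read on either strand. The Hmmr window is chr11:40733388-40733687 on the minus strand, the Kif20b window chr19:34922108-34922407 on the plus strand, the Cenpf window chr1:189688037-189688336 on the minus strand and the Bub3 window chr7:131560120-131560419 on the plus strand.
Hmmr: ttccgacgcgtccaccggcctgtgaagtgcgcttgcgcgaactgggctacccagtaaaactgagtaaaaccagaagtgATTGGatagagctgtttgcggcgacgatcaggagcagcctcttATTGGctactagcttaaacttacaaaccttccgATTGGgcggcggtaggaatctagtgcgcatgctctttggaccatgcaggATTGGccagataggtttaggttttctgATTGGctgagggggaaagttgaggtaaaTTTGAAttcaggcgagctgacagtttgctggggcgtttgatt
Kif20b: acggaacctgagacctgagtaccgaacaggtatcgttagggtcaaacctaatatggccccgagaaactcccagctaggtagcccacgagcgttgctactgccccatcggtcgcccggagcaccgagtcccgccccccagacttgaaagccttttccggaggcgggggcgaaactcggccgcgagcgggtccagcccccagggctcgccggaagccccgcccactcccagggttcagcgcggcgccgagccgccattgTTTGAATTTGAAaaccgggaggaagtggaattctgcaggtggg
Cenpf: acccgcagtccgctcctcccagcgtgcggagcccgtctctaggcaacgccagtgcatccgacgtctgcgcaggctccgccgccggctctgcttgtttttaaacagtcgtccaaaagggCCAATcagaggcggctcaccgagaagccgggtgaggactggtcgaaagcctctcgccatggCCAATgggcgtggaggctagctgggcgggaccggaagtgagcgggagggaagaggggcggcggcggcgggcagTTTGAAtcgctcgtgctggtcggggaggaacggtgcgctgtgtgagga
Bub3: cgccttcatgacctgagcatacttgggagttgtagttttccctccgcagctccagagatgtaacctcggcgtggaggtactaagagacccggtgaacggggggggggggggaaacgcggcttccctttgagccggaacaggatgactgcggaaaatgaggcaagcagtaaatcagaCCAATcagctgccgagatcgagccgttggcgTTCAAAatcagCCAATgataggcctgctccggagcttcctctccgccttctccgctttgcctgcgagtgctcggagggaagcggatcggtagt
Hmmr holds 1 TTTGAA, which begins 8 bases after the start, and 5 CCAAT boxes in reverse orientation upstream of it. Kif20b holds 2 TTTGAA in direct succession and no CCAAT. Cenpf and Bub3 each hold 1 TTTGAA and 2 CCAAT boxes. Presence of the CHR letters did not separate higher from lower genes. The 33 genes with a match had a median log2 ratio of 0.094, with 21 above 0, and the 15 without one had 0.063, with 11 above 0.

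**Figure D2:**
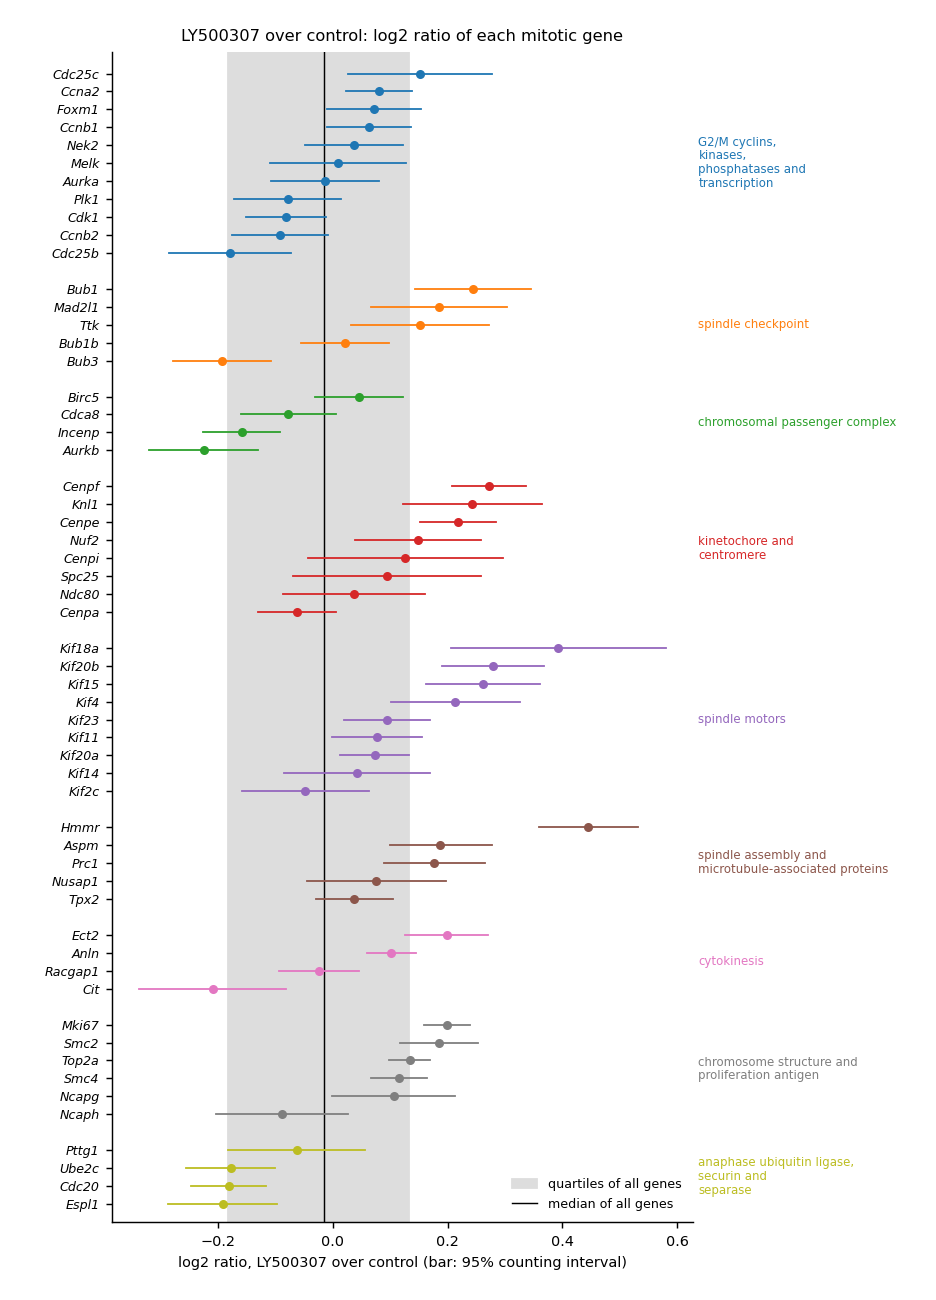
Log2 ratio of LY500307 over control for each of the 56 mitotic genes by role, with the 95% counting interval as a bar, beside the median (line) and quartiles (grey band) of the 11384 genes that reached the floor. Spindle assembly genes lie at or above 0.038, and all 4 genes of anaphase onset lie below 0.

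Among the 11 cyclins, kinases, phosphatases and transcription factors of G2/M, the median log2 ratio was 0.0094, with 6 above 0. Ccnb1, which encodes cyclin B1, had 3221 reads in the LY500307 and 2903 in the control library, a fold of 1.04 (95% counting interval 0.993 to 1.10). Cdk1, its kinase, had 3371 reads in the LY500307 and 3358 in the control library, which is 0.945 of the control value after scaling (0.901 to 0.992). Ccnb2, for cyclin B2, had 2302 reads in the LY500307 and 2311 in the control library, 0.938 of the control value (0.885 to 0.994). None of these intervals kept its side of 1 under every scaling. With CPM the interval was 1.02 to 1.12 for Ccnb1, 0.921 to 1.014 for Cdk1 and 0.905 to 1.02 for Ccnb2. Ccnb1 shares at least 95% identity over 200 bases or more with the pseudogenes Ccnb1-ps, with 53 reads in each library, and Gm12856, with 5 in the LY500307 and 6 in the control library. These copies hold few reads beside those of Ccnb1.

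The CDC25 phosphatases stood at opposite ends of this group. Cdc25c had 1135 reads in the LY500307 and 962 in the control library and was 1.11-fold higher (1.02 to 1.21). Cdc25b had 1404 reads in the LY500307 and 1497 in the control library and stood at 0.883 of the control value (0.820 to 0.95). Foxm1, which encodes a transcription factor of the G2/M program, had 2528 reads in the LY500307 and 2265 in the control library, a fold of 1.05 (0.993 to 1.11). The S and G2 cyclin gene Ccna2 was 1.06-fold higher (1.02 to 1.10). For the kinase genes Nek2, Melk, Aurka and Plk1 the log2 ratios lay between 0.037 for Nek2 and −0.078 for Plk1, with intervals that all span 1.

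Of the 5 spindle checkpoint genes, 4 were above 0 and the median was 0.15. Bub1, a checkpoint kinase at the kinetochore, had 1784 reads in the LY500307 and 1418 in the control library and was 1.18-fold higher (1.10 to 1.27). Mad2l1, for the MAD2 protein that binds CDC20, was 1.14-fold higher (1.05 to 1.23), and the kinase gene Ttk 1.11-fold (1.02 to 1.21). Bub1b, for BUBR1, had a fold of 1.015 (0.963 to 1.07). Bub3, for the partner that brings BUB1 and BUBR1 to kinetochores, went the other way, with 2127 reads in the LY500307 and 2289 in the control library, 0.875 of the control value (0.824 to 0.928). The mitotic checkpoint complex, made of the products of Mad2l1, Bub1b, Bub3 and Cdc20, thus had genes from 0.19 down to −0.19 on the log2 scale, a range of 0.38 among 4 partners.

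Genes of the chromosomal passenger complex, which corrects faulty attachments and then moves to the spindle midzone, had a median of −0.12, with 1 of 4 above 0. The kinase gene Aurkb (ENSMUSG00000020897) had 1708 reads in the LY500307 and 1880 in the control library, the lowest ratio of the 56 genes at 0.855 of the control value (0.801 to 0.914). Incenp, for the scaffold, stood at 0.896 (0.855 to 0.938) and Cdca8, for borealin, at 0.948 (0.895 to 1.004). Birc5, for survivin, had 2868 reads in the LY500307 and 2617 in the control library, a fold of 1.032 (0.978 to 1.09). The complex was therefore uneven, with intervals below 1 for Aurkb and Incenp and spanning 1 for the others.

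Among kinetochore and centromere genes the median was 0.14, and 7 of 8 lay above 0. Cenpf, for a large outer kinetochore protein, had 4417 reads in the LY500307 and 3445 in the control library and was 1.21-fold higher (1.15 to 1.26). Knl1, which scaffolds the checkpoint at the kinetochore, was 1.18-fold higher (1.09 to 1.29), and the kinetochore motor gene Cenpe 1.16-fold (1.11 to 1.22). The exception was Cenpa, for the centromeric histone H3 variant, with 3515 reads in the LY500307 and 3457 in the control library, 0.957 of the control value (0.913 to 1.004). In the NDC80 complex, which binds microtubules, the log2 ratios were 0.15 for Nuf2, 0.094 for Spc25 and 0.037 for Ndc80. Its remaining subunit gene, Spc24, which is not among the 56, had 873 reads in the LY500307 and 949 in the control library, a log2 ratio of −0.21. Cenpi, an inner kinetochore gene, had 617 reads in the LY500307 and 532 in the control library, a fold of 1.09 (0.971 to 1.23).

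Of the 9 kinesin genes, 8 lay above 0, with a median of 0.095. Kif18a, whose motor dampens chromosome movement at the metaphase plate, had 562 reads in the LY500307 and 403 in the control library and was 1.31-fold higher (1.15 to 1.5). Kif20b, for a motor of late cytokinesis, was 1.21-fold higher (1.14 to 1.29), with 2317 reads in the LY500307 and 1798 in the control library. Kif15, which backs up the bipolar spindle motor encoded by Kif11, had 1874 reads in the LY500307 and 1471 in the control library and was 1.199-fold higher (1.12 to 1.29). Its log2 ratio, 0.262, lay just under the 1.2-fold limit of 0.263, and that of Cenpf, 0.272, just over it. Kif4, a chromosome-bound motor gene, was 1.16-fold higher (1.07 to 1.25), and the others, Kif23, Kif11, Kif20a and Kif14, lay between 0.095 and 0.042. Kif2c, for the microtubule depolymerase MCAK, had 1357 reads in the LY500307 and 1321 in the control library, 0.967 of the control value (0.896 to 1.04).

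Among spindle assembly and microtubule-associated genes, 5 of 5 were above 0, with a median of 0.18. Hmmr (ENSMUSG00000020330), for a centrosomal and spindle protein also known as a hyaluronan receptor, had 2676 reads in the LY500307 and 1850 in the control library. Its fold of 1.36 (1.28 to 1.45) was the highest of the 56 genes. Aspm, for a spindle pole protein, was 1.14-fold higher (1.07 to 1.21), and Prc1, which bundles midzone microtubules, 1.13-fold (1.06 to 1.2). Nusap1, for a microtubule-binding spindle protein, had a fold of 1.05 (0.97 to 1.15). Tpx2, which activates Aurora A on the spindle, had 3772 reads in the LY500307 and 3460 in the control library, a fold of 1.026 (0.980 to 1.08).

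Cytokinesis genes were split, 2 of 4 above 0, with a median of 0.039. Ect2, the exchange factor that activates RhoA at the cleavage furrow, had 3378 reads in the LY500307 and 2772 in the control library and was 1.15-fold higher (1.09 to 1.21). Anln, for the furrow scaffold anillin, was 1.07-fold higher (1.04 to 1.11). Racgap1, the partner of Kif23 in centralspindlin, had a fold of 0.983 (0.937 to 1.032). Cit, for citron kinase, had 948 reads in the LY500307 and 1032 in the control library, 0.865 of the control value (0.791 to 0.946).

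Genes of chromosome structure, with the proliferation antigen gene Mki67, lay above 0 in 5 of 6 cases, with a median of 0.12. Mki67, whose product coats mitotic chromosomes, had 11237 reads in the LY500307 and 9216 in the control library and was 1.15-fold higher (1.12 to 1.18). Top2a had 13463 reads in the LY500307 and 11551 in the control library, a fold of 1.10 (1.07 to 1.13). Within condensin I, the ratios of the ATPase genes lay above those of the other subunits, that of Smc4 only just above Ncapg. The log2 ratio was 0.19 for Smc2 and 0.12 for Smc4, against 0.11 for Ncapg, −0.088 for Ncaph and −0.10 for Ncapd2, which is not among the 56. With the trend in GC content and length removed this order did not hold. Ncapd2 was then at −0.0074, above Smc2 at −0.019 and Smc4 at −0.064. Ncaph had 1230 reads in the LY500307 and 1231 in the control library, 0.941 of the control value (0.869 to 1.02).

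All 4 genes of anaphase onset lay below 0, with a median of −0.18. Cdc20, for the activator of the anaphase-promoting complex, had 3593 reads in the LY500307 and 3837 in the control library, 0.882 of the control value (0.842 to 0.923). Ube2c, the complex's ubiquitin-conjugating enzyme, had 2622 reads in the LY500307 and 2793 in the control library, 0.884 of the control value (0.838 to 0.933). Espl1, for separase, had 1749 reads in the LY500307 and 1881 in the control library, 0.875 of the control value (0.820 to 0.935). Pttg1, for securin, had 1157 reads in the LY500307 and 1138 in the control library, 0.957 of the control value (0.881 to 1.04). Intervals lay below 1 for Cdc20, Ube2c and Espl1 and spanned 1 for Pttg1.

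The split between roles ran in part along transcript GC content, which no part of the choice of genes used. Across the 56 genes the log2 ratio had a Spearman correlation of −0.78 with the GC content of the longest transcript and of 0.49 with its length. Over the 11349 nuclear genes at or above the floor, these were −0.59 and 0.24. The genes share both libraries, so these are descriptions without a test. The median GC content of the 56 genes was 46.1%, against 49.6% over all genes. It was 42.5% for kinetochore and centromere genes and 43.3% for spindle assembly genes, both mostly higher in the LY500307 library. For the genes of anaphase onset it was 55.6% and for the passenger complex 50.2%, both mostly lower. For spindle motors, 8 of 9 above 0, it was 46.3%, and for cytokinesis genes, 2 of 4 above 0, it was 45.8%. Those roles lay close together in median GC content but not in the share above 0. Within them GC content ran from 38.2% for Kif18a to 50.3% for Kif2c among motors. Among the 4 cytokinesis genes it ran from 40.2% for Ect2 to 54.2% for Cit, and their ratios fell as GC content rose. Of the 28 mitotic genes below the median GC content, 27 had a ratio above 0, and of the 28 at or above it, 11 did.

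**Figure D3:**
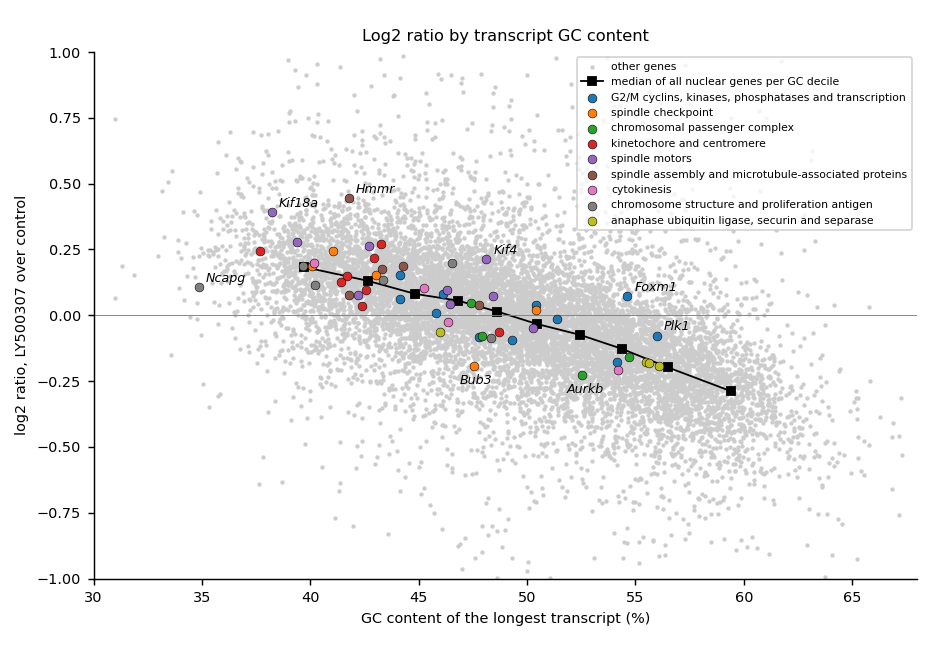
Log2 ratio of LY500307 over control against the GC content of the longest transcript, for the 56 mitotic genes by role (coloured), other genes that reached the floor (grey) and the median of all nuclear genes per GC decile (black). Most mitotic genes lie near the black line, with Hmmr 0.31 above and Bub3 0.25 below the median of their own decile. In all, 95 genes lie outside the axes or have no GC value.

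Set against genes in the middle of their GC range, the 56 mitotic genes had much the same median ratio. The 3681 nuclear genes in the interquartile range of the 56 genes' GC content, 42.3% to 48.8%, had a median log2 ratio of 0.075, against 0.074 for the 56. Of these 3681 genes, 67.4% lay above 0, against 67.9% of the 56. Intervals lay above 1 for 27.8% of them and below 1 for 7.47%, against 42.9% and 17.9% of the 56. The 56 extend beyond this range, from a GC content of 34.8% to 56.1%, so the sets compared are not matched in GC content. The lowest pair of GC deciles held 22 of the 56 genes, or 39.3%, and the highest decile held none. In the lowest decile the median was 0.20 for 9 mitotic genes and 0.18 for all genes. In the second it was 0.15 for 13 mitotic genes and 0.13 for all, and in the ninth −0.18 for 4 mitotic genes and −0.20 for all. In the third it was 0.10 for 5 mitotic genes and 0.081 for all, and in the fourth 0.044 for 8 mitotic genes and 0.056 for all. In the fifth it was −0.070 for 8 mitotic genes and 0.014 for all, of opposite sign. The sixth was also of opposite sign, at 0.0043 for 4 mitotic genes and −0.033 for all. In the seventh, Aurkb, its only mitotic gene, stood at −0.23, against −0.074 for all. In the eighth the median was −0.17 for 4 mitotic genes and −0.13 for all. Against the median of their own decile, 32 mitotic genes lay above and 24 below, and 42 were within 0.1 of it.

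**Figure D4:**
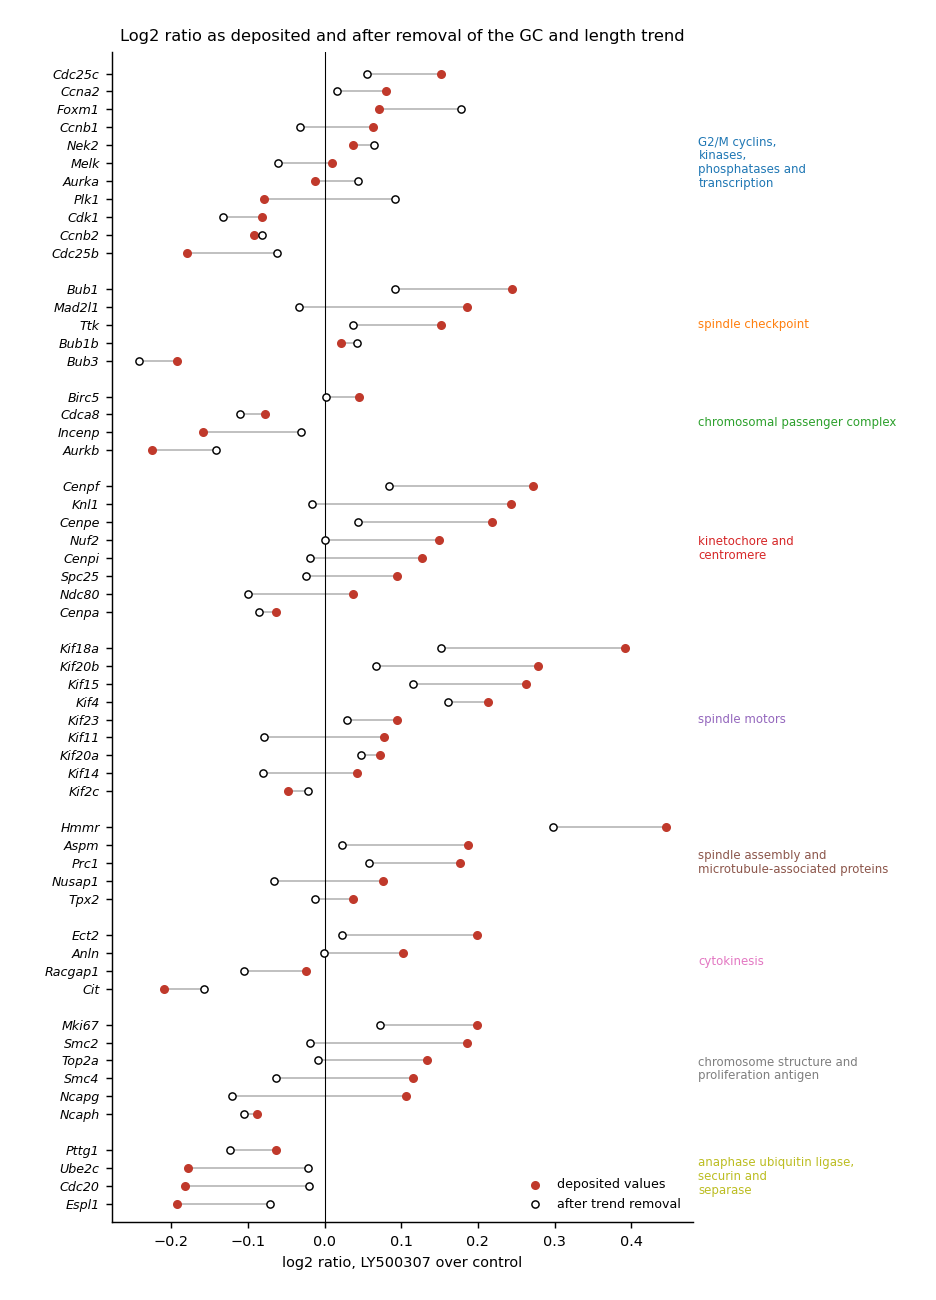
Log2 ratio of LY500307 over control for each of the 56 mitotic genes on the deposited values (filled) and after removal of the trend in transcript GC content and length (open), by role. After removal 42 of the 56 lie within 0.1 of 0, Hmmr is highest at 0.30 and Bub3 lowest at −0.24.

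When the trend of the log2 ratio in GC content and length over all nuclear genes was removed, the medians by role drew together. The median of the 56 genes became −0.017, against −0.015 over nuclear genes, and 24 lay above 0, or 42.9%, against 46.0%. In 16 genes the ratio changed from above to below 0 and in 2 from below to above. The medians by role then ranged from 0.047 for spindle motors to −0.071 for the passenger complex. Above 0 were then 6 of 9 spindle motor, 3 of 5 spindle assembly and 3 of 8 kinetochore genes. Of the passenger complex 1 of 4 was, and of anaphase onset 0 of 4. The range among NDC80 genes was 0.36 on the deposited values and 0.11 after removal, and that among condensin I genes 0.29 and 0.11. That of the checkpoint complex was 0.38 before and 0.28 after removal, with Bub3 at its lower end. For the passenger complex the range went from 0.27 to 0.14 and for cyclin B and CDK1 genes from 0.16 to 0.10. Between the centralspindlin genes Kif23 and Racgap1 it widened, from 0.119 to 0.135.

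Hmmr was the only one of the 56 still at least 1.2-fold higher after removal of the trend, with 0.30 on the log2 scale, against 0.45 before, and 7.71% of nuclear genes were. None was then 1.2-fold lower, against 8.47%. Kif18a was at 0.15, against 0.39 before removal, Kif15 at 0.11, against 0.26, and Kif4 at 0.16, against 0.21. Bub3 moved outward, to −0.24, since its GC content of 47.6% is that of genes with ratios just above 0. Foxm1, with a GC content of 54.6%, stood at 0.072 before and 0.18 after removal, and Plk1, at 56.0%, at −0.078 before and 0.091 after. Aurkb remained at −0.14 and Cit at −0.16, while Cdc20 and Ube2c went to −0.021 each and Espl1 to −0.071. Pttg1 moved outward, from −0.063 to −0.12. Cdk1 stood at −0.13, Ccnb1 at −0.031 and Mki67 at 0.072. What lies behind the relation with GC content was not tested.

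Some of these genes share exons with a neighbour on the opposite strand in GENCODE M21. The library kit keeps strand, but whether reads were counted by strand is not given in the sources used here. Kif20a overlaps Cdc23, which had 1936 reads in the LY500307 and 1769 in the control library. Kif4 overlaps Pdzd11, with 449 reads in the LY500307 and 400 in the control library. Cdc20 overlaps Elovl1, with 871 reads in the LY500307 and 982 in the control library. Ccna2 overlaps Exosc9, with 892 reads in the LY500307 and 787 in the control library, and Nusap1 overlaps Oip5, with 181 and 144. Ncapg overlaps Lcorl, with 335 reads in the LY500307 and 208 in the control library. Cdca8 overlaps 9930104L06Rik, with 277 reads in the LY500307 and 205 in the control library. Kif18a overlaps Mettl15, with 39 reads in the LY500307 and 44 in the control library. For the gene at either end of the range, Hmmr and Aurkb, no other gene of the table overlapped an exon.

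**Figure D5:**
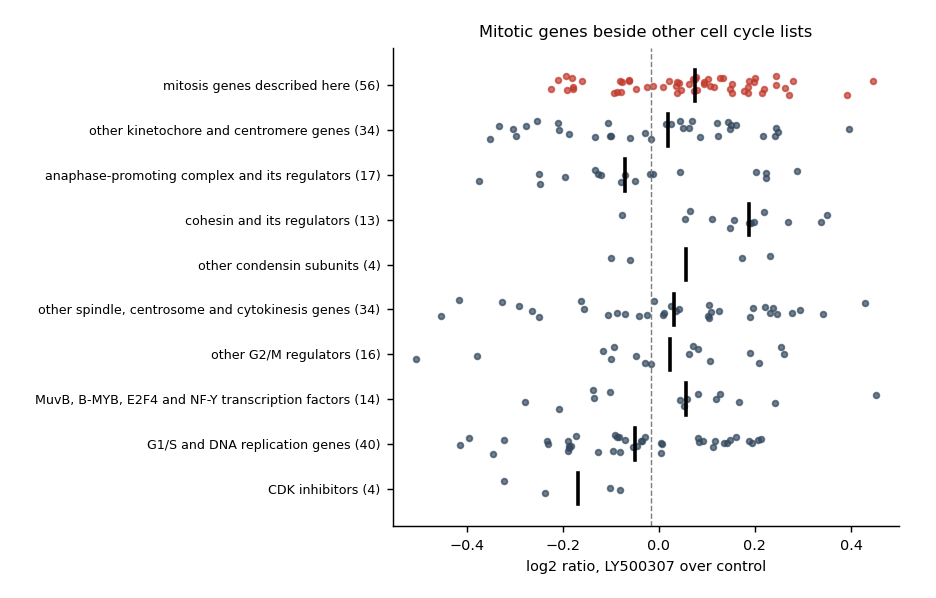
Log2 ratio of LY500307 over control for the 56 mitotic genes and for 9 other cell cycle lists, with 1 point per gene at or above the floor, the median of each list as a black bar and the median of all genes as a dashed line. Number of genes in parentheses. Cohesin genes have the highest median, 0.19, and CDK inhibitors the lowest, −0.17.

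Around these genes, 9 further lists of 179 symbols cover the rest of mitosis and the earlier cell cycle, of which 177 symbols are in the table. The counts below stand beside 47.2% of all genes above 0, 10.5% at least 1.2-fold higher and 15.9% lower. Cohesin and its regulators, which hold sister chromatids together, had 12 of 13 genes above 0 and a median of 0.19, with 3 at least 1.2-fold higher and 0 lower. Esco1, a cohesin acetyltransferase gene, had 931 reads in the LY500307 and 688 in the control library, a fold of 1.27 (1.15 to 1.41). Nipbl, for the cohesin loader, was 1.26-fold higher (1.2 to 1.34), while its partner Mau2 stood at 0.948 of the control value (0.871 to 1.031). The lowest but Mau2 was Smc1a, with a fold of 1.04 (0.992 to 1.09). The cohesin list has a median GC content of 42.3%, and its median was 0.015 after removal of the trend.

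The median over further kinetochore and centromere genes was 0.020, and 18 of 34 lay above 0. Of the 34, 1 was at least 1.2-fold higher and 5 lower, against 10.5% and 15.9% of all genes. Counting intervals lay above 1 for 3 of the 34 and below 1 for 9, against 18.1% and 23.7% of all genes. Mis18a, which helps load CENP-A, had 426 reads in the LY500307 and 505 in the control library and was at 0.794 of its control level (0.697 to 0.905). The inner kinetochore gene Cenpk had a fold of 1.19 (0.906 to 1.56) and Cenps of 0.784 (0.658 to 0.932). The anaphase-promoting complex and its regulators had a median of −0.070, with 5 of 17 above 0, 1 at least 1.2-fold higher and 1 lower. Its subunit genes Cdc26 and Cdc27 were 1.22-fold (1.05 to 1.42) and 1.17-fold higher (1.10 to 1.24). Anapc11, for the RING subunit, was at 0.841 of its control level (0.763 to 0.926), and Fzr1, for the activator CDH1, at 0.772 (0.717 to 0.831). Fzr1, with a transcript GC content of 59.9%, had a log2 ratio of −0.37, and of −0.086 with the trend removed.

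Over further spindle, centrosome and cytokinesis genes the median was 0.031, and 20 of 34 lay above 0. Of the 34, 4 were at least 1.2-fold higher and 5 lower, against 10.5% and 15.9% of all genes. The augmin subunit genes Haus3 and Haus6 were 1.35-fold (1.2 to 1.52) and 1.27-fold higher (1.17 to 1.37), while Haus5 had only 54 reads in the LY500307 and 70 in the control library (0.726, 0.500 to 1.05). Cntrob, a centriole gene, stood at 0.750 of the control value (0.652 to 0.861). Further G2/M regulators had a median of 0.023, with 8 of 16 above 0, 0 at least 1.2-fold higher and 2 lower. Pkmyt1, a kinase that restrains CDK1, stood at 0.704 of the control value (0.630 to 0.787), with 558 reads in the LY500307 and 746 in the control library. Mastl, the Greatwall kinase gene that sustains the mitotic state, was 1.198-fold higher (1.09 to 1.32). Cdkn3 had a fold of 1.19 (1.02 to 1.40) and Pimreg of 0.769 (0.706 to 0.838). The 4 condensin subunits outside the 56 had a median of 0.057.

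The transcription factors that act on CHR and CCAAT elements had a median of 0.056, with 9 of 14 above 0. Of the 14, 1 was at least 1.2-fold higher and 1 lower, against 10.5% and 15.9% of all genes. The MuvB subunit gene Lin52 had 118 reads in the LY500307 and 81 in the control library, a fold of 1.37 (1.03 to 1.84). Rbl2, for the pocket protein p130, had a fold of 1.18 (0.991 to 1.41), the NF-Y subunit gene Nfya of 0.865 (0.774 to 0.967) and E2f4 of 0.824 (0.784 to 0.866). Genes of G1/S and DNA replication, at the other end of the cycle, had a median of −0.050, with 16 of 40 above 0. Of the 40, 0 were at least 1.2-fold higher and 4 lower, beside the same shares of all genes. Prim1, for the primase subunit that starts DNA strands, was 1.16-fold higher (1.06 to 1.27), while Gins2 was at 0.761 of its control level (0.671 to 0.862) and E2f2 at 0.750 (0.624 to 0.900). The median GC content of this list was 49.2%, against 46.1% for the 56 mitotic genes, and with the trend removed its median was −0.066, against −0.017 for the 56. The difference between the lists was not tested, since 1 library per group allows no test. All 4 CDK inhibitor genes that reached the floor lay below 0, with a median of −0.17. With a median GC content of 55.1%, this list had a median of −0.099 with the trend removed, and 1 of its genes, Cdkn2d, then lay above 0, at 0.070. Cdkn1c, below the floor, had 0 reads in the LY500307 and 3 in the control library, and Cdkn2a and Cdkn2b were not analysed here.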

How the data were processed

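Per the labels' protocols, TruSeq stranded libraries were made from TRIzol-extracted total RNA after removal of ribosomal RNA. CASAVA 1.8, Bowtie2 and mm9 are named in the submitters' processing notes without a role. No source used here names the counter, annotation, strand setting or normalization tool. The deposited table holds 1 signal value per gene and library, and its values are whole multiples of 1 step per column. After division by that step, 99.96% of values in the LY500307 and 99.95% in the control column lay within 0.01 of a whole number. The whole numbers are the recovered reads. The deposited scaling puts ratios 0.032 lower on the log2 scale than read totals would.

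The log2 ratio of LY500307 over control adds a pseudocount of 1.03 to both values, which is the 5th percentile of values above 0, and understates differences of genes with few reads. Genes were kept where the higher value reached 33.0, the 40th percentile. A fold of 1 gene is the ratio of deposited values without pseudocount, with a 95% counting interval from the LY500307 share of reads (exact Clopper-Pearson). Intervals treat reads as independent molecules and cover counting error only. No count model was fitted to unreplicated groups. Symbols of 19443 IDs, and the GC content and length of each longest transcript, came from GENCODE M21, and RefSeq windows gave promoters. A robust regression in R 4.3.3 (MASS) gave the trend, with natural splines of 5 degrees of freedom for GC content and for log length, and with outlying GC contents and lengths moved inward. Shared sequence was sought with BLAST 2.17.0. Intervals and trend removal were run on simulated data with counting error only and a straight trend in GC content, with none added in length. This checked the calculation and cannot speak to the spread between cultures.

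The genes, roles and lists were chosen with earlier results of these data known. Described in full are the highest and lowest ratio of each role, the 6 highest and 6 lowest of all, and Cdk1, Ccnb1, Mki67 and Foxm1, and of each list with 5 or more measured genes the 2 highest and 2 lowest. Of the genes this rule takes from the lists, 2 are not reported here. Complexes, the joining of roles into sets of 22 and 8 genes, and other genes named with values, were chosen after their values were seen.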

Additional observations from a re-analysis of the deposited data

How the results depend on the processing

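The median log2 ratio of the 56 mitotic genes, 0.074 on the deposited values, became 0.090 when centred on the median of all genes, 0.097 with upper-quartile scaling, 0.11 with CPM of recovered reads and −0.017 with the GC and length trend removed. The number above 0, 38, became 24 with the trend removed. The number at least 1.2-fold higher, 4, became 7 with upper-quartile scaling, 7 with CPM and 1 with the trend removed. The CPM setting here kept the floor and pseudocount in proportion, so it acts through the scaling alone. A pseudocount of 1, which hardly differs from 1.03, no floor, a floor of 50 reads and nuclear protein-coding genes only left these results the same. Under centring, upper-quartile scaling or CPM the counting interval of 8 of the 56 genes changed its side of 1 in at least 1 of the 3 settings. None of the 56 was 1.5-fold apart in any of these settings. Of 24 genes with full values, 24 stayed within their counting intervals under each scaling and 11 with the trend removed. Background genes in the interquartile range of the 56 genes' GC content and background genes with at least the reads of the least covered mitotic gene were chosen after the data were seen. No paired analysis was possible because each group has 1 library. For the same reason no replicate could be left out. The genes with fewest reads limit precision most, as for Kif18a with an interval of 1.15 to 1.5.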
